A study of Mus musculus with 16 samples.

Results

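Long non-coding RNAs (lncRNAs) of the embryonic mouse cortex were followed through 9 genes of the 51912 listed in each library. The unnamed gene models Gm29260 and Gm11266 were chosen by their lower counts in Knl1 conditional knockout (cKO) cortex than in control, so their values are given as a description, without a test. The other 7, Meg3, Miat, Rmst, Sox2ot, Malat1, Neat1 and Snhg11, were chosen as lncRNAs known to be abundant in brain. Levels are CPM, that is counts scaled to library size with TMM factors, differences are fitted log2 fold changes ± SE from edgeR likelihood ratio tests, and FDR values are adjusted over all 51912 genes.

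The RNA came from E15.5 cerebral cortex of 15 mice, 1 or more from each of 4 litters. The 7 control (ctrl) mice were wild type (5 mice) or Knl1 heterozygous (2 mice; the labels use the older name Casc5), and the labels do not say which of them carried Cre. The 4 cKO mice were Knl1 fl/fl with hGFAP-Cre, and the 4 dKO mice were Knl1 fl/fl and Trp53 fl/fl with hGFAP-Cre. By the labels, batch 1 held 3 ctrl and 3 cKO mice, and batch 2 held 1 ctrl mouse. Batch 3 held 3 ctrl mice, 1 cKO mouse and all 4 dKO mice. Batch and genotype were thus partly confounded, most of all between cKO and dKO. The hGFAP-Cre transgene recombines in cortical neural progenitors after neurogenesis has begun, so neurons born earlier and cells of other lineages in the same tissue keep both genes. KNL1 is a kinetochore scaffold needed in mitosis, and Trp53 encodes the p53 protein.

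A lncRNA is transcribed, and often spliced and polyadenylated, like an mRNA but is not translated into a protein. Some act where they are made, on neighbouring genes or on the chromatin of an imprinted cluster, and others build or occupy nuclear bodies or carry small RNAs in their introns. In developing cortex many lncRNAs are restricted to progenitors, to neurons or to 1 neuronal subtype.

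Total counts per mouse were 399832 to 3266227 in ctrl, 4178461 to 8800987 in cKO and 552186 to 5396803 in dKO, so every cKO mouse was sequenced more deeply than every ctrl mouse. Litter 4 held 1 cKO mouse (F3), 2 dKO mice (F1, F7) and no ctrl mouse, and lay at or near the upper end of several technical shares. Its mitochondrial share of counts was 2.96% to 4.38%, against 0.846% to 2.96% in the other 12 mice, and its reads outside any gene came to 8.69% to 13.3%, against 5.95% to 9.52%. Knl1 and Trp53 themselves did not separate the groups. Knl1 was 62.8 ± 13.5 CPM (SD, n = 7) in ctrl, 58.2 ± 14.9 (n = 4) in cKO and 49.8 ± 11.7 (n = 4) in dKO, and Trp53 was 30.5 ± 10.6, 28.3 ± 4.26 and 25.1 ± 5.26 CPM. These counts cover the whole gene and include cells without Cre, so they do not check the deletion of a floxed segment. Xist was 956 to 1209 CPM in the 7 mice labelled female and 0 to 16.3 CPM in the 8 labelled male.

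What the counts cover matters for lncRNAs, which have long introns. Of 348 protein-coding genes that lie inside another protein-coding gene on the same strand, 346 (99.4%) had no count in any library, against 130 of 528 (24.6%) inside a gene on the opposite strand and 4407 of 21793 (20.2%) protein-coding genes in all. The counts therefore behaved as strand-specific counts over whole gene spans, introns included. Inside the members, all 32 genes nested on the same strand were at 0, among them Sox2, the progenitor transcription factor gene that lies within Sox2ot. A read wholly within Sox2 also lies within Sox2ot. Over whole spans, the intersection-nonempty mode counts such a read for neither gene, so Sox2 was not measured here.

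Gm29260 (ENSMUSG00000100832) is a lincRNA gene model on the plus strand at chr1:41781808-41939560 (GRCm38). It spans 158 kb, of which 3.20 kb (2.03%) is exonic in 2 annotated transcripts, and it overlaps no other annotated gene. RefSeq gives 7 promoter windows for the same model, and the most upstream start lies 38.8 kb before the GENCODE start. The promoter window of that upstream start and the first exons of the longer GENCODE transcript, which has 6 exons and 2759 bases, are shown because the gene has no name or described function by which to recognise it. Capitals mark the 50 bases that follow the RefSeq start in the window of 300 bases, chr1:41742772-41743071, plus strand, GRCm38.p6. Exon 1 lies at chr1:41781808-41781884 and exon 2 at chr1:41895571-41895710.
Gm29260 promoter window: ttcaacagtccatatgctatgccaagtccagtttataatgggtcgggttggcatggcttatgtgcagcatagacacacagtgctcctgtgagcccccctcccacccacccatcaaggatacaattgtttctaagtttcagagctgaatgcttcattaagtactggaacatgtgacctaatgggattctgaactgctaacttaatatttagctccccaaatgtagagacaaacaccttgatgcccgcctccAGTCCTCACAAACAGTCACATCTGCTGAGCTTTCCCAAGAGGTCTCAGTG
Gm29260 exon 1: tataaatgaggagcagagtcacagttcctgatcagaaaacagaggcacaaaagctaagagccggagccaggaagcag
Gm29260 exon 2: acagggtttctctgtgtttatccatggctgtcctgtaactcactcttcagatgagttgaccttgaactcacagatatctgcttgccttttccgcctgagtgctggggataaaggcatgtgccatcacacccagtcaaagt
Both strands were searched for 5 motifs. TATAAA matched once, on the reverse strand from base 32 of the window, and occurred in 13.6% of 32851 RefSeq windows. This window had no match to the GC box GGGCGG (35.7% of windows) or to CCAAT (37.4%). Nor did it match the octamer ATGCAAAT (1.74%) or a p53 half-site (8.36%). Another RefSeq window of the gene, chr1:41906392-41906691, had 3 matches to TATAAA, 1 to the GC box and 1 to CCAAT.

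Gm29260 was lower in both knockouts than in ctrl. In ctrl it was 519 CPM in mouse 2, 527 in mouse 6, 589 in S1, 497 in S3, 647 in T3, 613 in T4 and 494 in T5. In cKO it was 257 CPM in mouse 5, 291 in mouse 7, 365 in F3 and 457 in S2, and in dKO it was 352 in F1, 349 in F7, 348 in T2 and 371 in T8. Neither knockout group overlapped ctrl. The cKO mean of 342 ± 89.0 CPM (SD, n = 4) was 61.7% of the ctrl mean of 555 ± 60.6 (n = 7), and the dKO mean of 355 ± 11.1 (n = 4) was 64.0% of it. The fitted log2 fold changes were -0.71 ± 0.15 in cKO and -0.64 ± 0.12 in dKO, and both comparisons used the same ctrl mice. Between cKO and dKO the log2 fold change was -0.03 ± 0.18, with overlapping groups.

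Of 9178 genes with a mean of at least 10 CPM, 5 (0.0545%) had all 8 knockout mice below all 7 ctrl mice. Besides Gm29260 these were Plcb1 (a phospholipase C), Col11a1 (a fibrillar collagen), Tpst1 (a tyrosylprotein sulfotransferase) and Rai14. The lowest ctrl level was 1.08 times the highest knockout level for Gm29260 and 1.00 to 1.07 times for the other 4. In cKO alone 30 of the 9178 genes (0.327%) lay below ctrl without overlap, and in dKO alone 38 (0.414%). These counts include the contrast by which Gm29260 was chosen.

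Littermates showed the same order. In litter 1 the 2 cKO mice had 0.523 times the Gm29260 level of their 2 ctrl littermates, and in litter 3 the 2 dKO mice had 0.616 times that of their 3 ctrl littermates. The difference was smallest in litter 2, where the single cKO mouse, S2, had 0.843 times the mean of 2 ctrl littermates. In litter 4 the cKO mouse had 1.04 times the mean of the 2 dKO mice. The 2 heterozygous ctrl mice, T4 and T5, were at 613 and 494 CPM, and the 5 wild types were between 497 and 647 CPM, so T5 was the lowest ctrl mouse. The libraries S2 and S2b, both of mouse S2, had 1997 and 2024 counts of Gm29260.

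Neither gene beside Gm29260 passed the test. The nearest expressed neighbours, by the same mean of 10 CPM, were Gm28175, a lincRNA 322 kb away, and Map4k4, a kinase gene 1755 kb away on the other side. Gm28175 was 48.3 ± 14.3 CPM in ctrl, 57.9 ± 3.40 in cKO and 58.8 ± 7.82 in dKO, with an FDR of 0.883 and 1. Map4k4 was 880 ± 39.9, 938 ± 26.0 and 901 ± 42.02 CPM, with an FDR of 1 in both. Across the 15 mice the log2 levels most like those of Gm29260 were those of Slc17a6, a vesicular glutamate transporter gene (Pearson's r = 0.91), Fras1 (0.89), which encodes an extracellular matrix protein, and Rai14 (0.87), among 9177 genes. The 15 mice share groups, litters and depth, so these coefficients are descriptions.

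**Figure D1:**
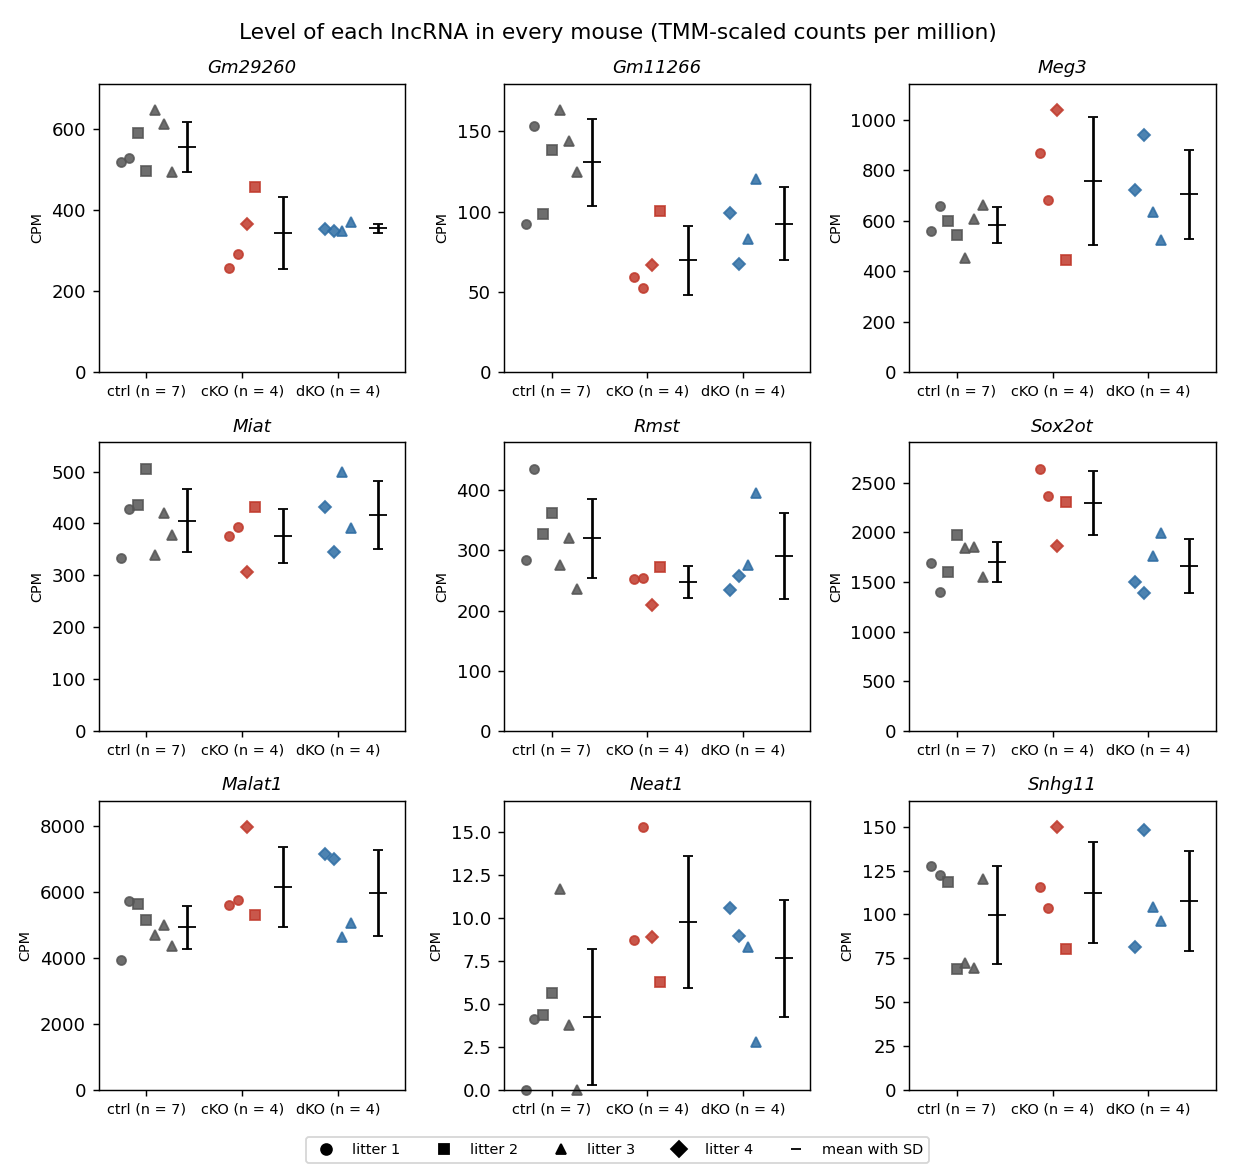
CPM (linear axis from 0) of the 9 lncRNAs in every mouse, by group, with the marker shape giving the litter and the bar the mean with SD. All 8 knockout mice lie below the 7 ctrl mice for Gm29260, 3 of 4 cKO mice lie above all ctrl mice for Sox2ot, and the 3 mice of litter 4 have the highest Malat1.

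Gm11266 (ENSMUSG00000087413) is an antisense gene model on the plus strand at chr4:82508016-82547292 (GRCm38), 39.3 kb long and 3.24% exonic. It lies wholly within Nfib, which is transcribed from the opposite strand and encodes a nuclear factor I protein of radial glia and young neurons. Its RefSeq promoter window, chr4:82507739-82508038 on the plus strand of GRCm38.p6, is therefore also sequence of the Nfib gene. The window is printed with the 50 bases after the RefSeq start in capitals, and none of the motifs searched in the Gm29260 window occurred in it.
Gm11266 promoter window: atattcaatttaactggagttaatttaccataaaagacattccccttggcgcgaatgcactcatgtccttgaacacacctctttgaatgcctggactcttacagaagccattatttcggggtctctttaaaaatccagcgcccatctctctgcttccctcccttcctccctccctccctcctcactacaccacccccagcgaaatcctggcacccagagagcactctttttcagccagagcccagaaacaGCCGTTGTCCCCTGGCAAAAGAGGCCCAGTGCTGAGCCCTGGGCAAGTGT

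The level of Gm11266 was 92.4 to 163 CPM in ctrl, with a median of 138. The cKO mice had 59.1 (mouse 5), 52.5 (mouse 7), 66.8 (F3) and 101 CPM (S2), and the dKO mice had 99.3 (F1), 67.1 (F7), 82.9 (T2) and 120 CPM (T8). In cKO 3 mice and in dKO 2 mice were below the lowest ctrl mouse, and the others lay within the ctrl range. The log2 fold change was -0.91 ± 0.18 in cKO and -0.51 ± 0.17 in dKO. Between cKO and dKO it was -0.37 ± 0.22. Within litters the cKO mice had 0.454 (litter 1) and 0.851 (litter 2) times the ctrl level, and the dKO mice of litter 3 had 0.705 times it. S2 was the highest cKO mouse, as it was for Gm29260.

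Nfib was also at lower levels in both knockouts, without passing the test. It was 3321 ± 272 CPM in ctrl, 2697 ± 235 in cKO and 2703 ± 257 in dKO, a log2 fold change of -0.32 ± 0.12 (FDR = 0.577) and -0.29 ± 0.13 (FDR = 1). Per 100 counts of Nfib there were 3.93 ± 0.728 counts of Gm11266 in ctrl (SD, n = 7), 2.56 ± 0.574 in cKO (n = 4) and 3.40 ± 0.651 in dKO (n = 4). These ratios overlapped between groups, at 2.76 to 5.02, 1.99 to 3.36 and 2.52 to 3.90. The genes most like Gm11266 over the 15 mice were Plce1, a phospholipase C gene (r = 0.95), Smad6, an inhibitor of BMP signalling (0.94), and Nfia, another nuclear factor I gene (0.91). In cKO versus ctrl their log2 fold changes were -0.78 ± 0.18, -0.88 ± 0.24 and -0.47 ± 0.14. They were picked for likeness to a model chosen as lower in cKO, so lower levels in cKO follow in part from that choice. These values are given as a description, without a test. Gm11266 and Gm29260 had r = 0.82 with each other, the highest of the 36 pairs of members. Both were chosen for lower counts in cKO among these same mice, which favours a high r, so this is a description.

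Some markers of other cell types passed the test in these comparisons. Eomes and Neurog2, transcription factor genes of intermediate progenitors, fell in cKO by 1.128 ± 0.18 and 1.19 ± 0.25 on the log2 scale (FDR = 5.06e-06 and 0.00564). The 3 intermediate progenitor markers (Eomes, Neurog2, Btg2) summed to 112.5 to 160 CPM in ctrl, 59.9 to 109 in cKO and 76.6 to 139.5 in dKO. The 7 radial glia markers summed to 260 to 321, 220 to 262 and 232 to 261 CPM, with no member past the test and Sox2 at 0. The 6 interneuron markers summed to 382 to 806, 712 to 873 and 542 to 782 CPM, and of them Gad1 rose in cKO by 0.56 ± 0.14 (FDR = 0.0408). Ttr, the transthyretin gene of choroid plexus, was lower in cKO, with a log2 fold change of -5.61 ± 1.03 against ctrl (FDR = 0.00652) and -5.02 ± 0.883 against dKO (FDR = 0.000404). The 3 choroid plexus markers summed to 0 to 54.45, 0.682 to 1.75 and 1.75 to 25.9 CPM in ctrl, cKO and dKO. The alpha globin gene Hba-a2 rose in dKO by 1.98 ± 0.475 (FDR = 0.0203), and the 5 blood markers summed to 8.47 to 21.8, 16.8 to 20.9 and 22.2 to 30.5 CPM. The part of these cell types in the levels of the lncRNAs was not tested, and in whole cortex fewer cells of a type and less RNA per cell cannot be told apart.

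None of the 7 abundant lncRNAs passed the test in any comparison, against a background of 83 of 51912 genes called in cKO versus ctrl (0.16%), 26 in dKO versus ctrl (0.0501%) and 27 in cKO versus dKO (0.052%). At an unadjusted p under 0.05, 4 of the 6 with a mean of at least 10 CPM were counted in cKO versus ctrl, where 10.7% of 9178 such genes were. The numbers were 0 of 6 in dKO versus ctrl (5.75% of genes) and 1 of 6 in cKO versus dKO (4.01%). No abundant lncRNA had groups that did not overlap, in cKO versus ctrl (1.34% of genes), in dKO versus ctrl (0.719%) or in cKO versus dKO (4.12%). For the 6 with a mean of at least 10 CPM, which leaves out Neat1, the median log2 fold change was 0.23 in cKO and 0.07 in dKO. Over all genes at 10 CPM it was 0.04 and 0.01.

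**Figure D2:**
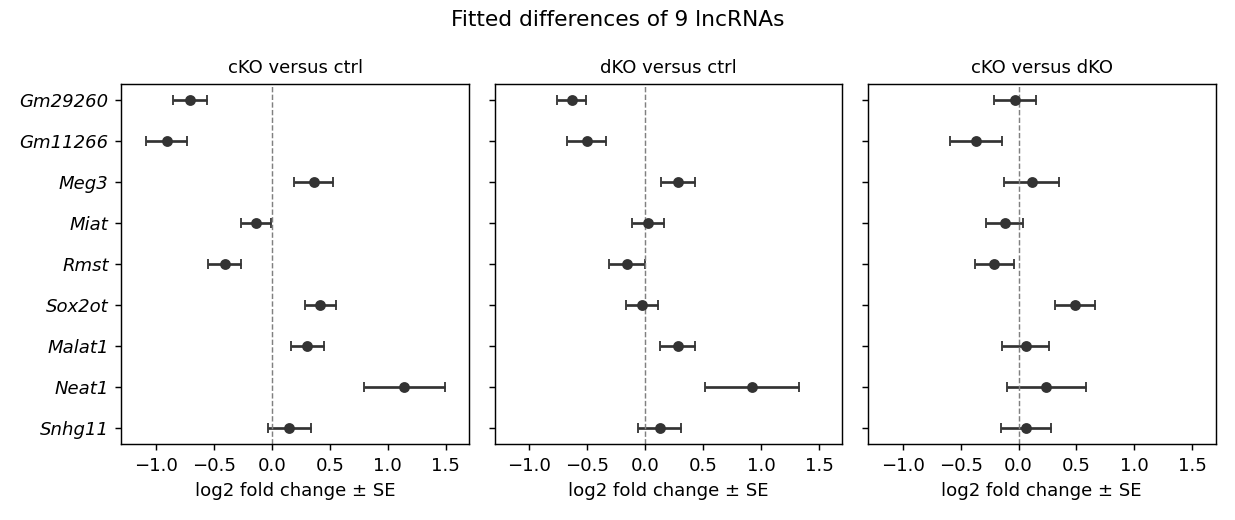
Fitted log2 fold change (points) with its SE (bars) for the 9 lncRNAs in the 3 pairwise comparisons of the groups, where 0 is no difference. Gm29260 and Gm11266, which were chosen for this, lie below 0 in both comparisons with ctrl, and Sox2ot lies above 0 in both comparisons of cKO (0.42 and 0.49) and at -0.03 in dKO versus ctrl.

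Sox2ot and Rmst are the neural lncRNAs of the set. Sox2ot (ENSMUSG00000105265, chr3:34104270-34682619, plus strand) spans 578 kb around Sox2, of which 2.00% is exonic, and is expressed in neural progenitors and neurons. Ctrl mice had 1398 to 1972 CPM, with a median of 1691. In cKO the levels were 2643 (mouse 5), 2372 (mouse 7), 1864 (F3) and 2311 CPM (S2), and the dKO mice had 1501 (F1), 1387 (F7), 1765 (T2) and 1995 CPM (T8). All cKO mice but F3 were above every ctrl and every dKO mouse. The log2 fold change was 0.42 ± 0.13 in cKO (FDR = 0.266), -0.03 ± 0.14 in dKO (FDR = 1) and 0.49 ± 0.17 in cKO versus dKO (FDR = 0.62). The call depended on the test. With edgeR's quasi-likelihood F test the FDR was 0.00614 in cKO versus ctrl and 0.0202 in cKO versus dKO. A litter covariate gave 0.00842 in cKO versus ctrl. The log2 fold change of cKO versus dKO was smaller with batch as a covariate (0.187) and with litter (0.386). It was 0.186 in batch 3 alone, which held 1 cKO mouse.

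Littermates gave the same direction for Sox2ot wherever a cKO mouse was compared. The ratio was 1.62 in litter 1 (2 cKO and 2 ctrl mice) and 1.29 in litter 2 (1 cKO and 2 ctrl mice). Over the dKO mice of litter 4 it was 1.29 (1 cKO and 2 dKO mice). The dKO mice of litter 3 had 1.07 times the ctrl level and overlapped it. The nearest expressed neighbours outside its span, Dnajc19 at 22.9 kb and Atp11b at 1071 kb, had log2 fold changes of 0.41 ± 0.22 and 0.04 ± 0.12 in cKO (FDR = 1 for both). Genes with the most similar levels were Pid1 (r = 0.91), Nrxn3 (0.89), a presynaptic adhesion gene, and Cdk14 (0.87). Nrxn3 was 5302 ± 720 CPM in ctrl, 7281 ± 1080 in cKO and 5350 ± 363 in dKO, and its cKO mice lay above all ctrl and all dKO mice (FDR = 0.279 and 0.627).

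Rmst (ENSMUSG00000112117, chr10:92071037-92165170, minus strand) spans 94.1 kb, is 7.89% exonic and encodes a lncRNA that binds the SOX2 protein during neurogenesis. It had 236 to 436 CPM in ctrl, with a median of 321. Values in cKO were 253 (mouse 5), 254 (mouse 7), 210 (F3) and 272 CPM (S2), and the dKO mice 234 (F1), 258 (F7), 275 (T2) and 396 (T8). The cKO values sat in the lower part of the ctrl range, with F3 below it, and the dKO values covered most of it, with F1 just below it. The log2 fold change was -0.41 ± 0.14 in cKO (FDR = 0.408) and -0.16 ± 0.16 in dKO (FDR = 1). In cKO it passed under 4 alternatives, with an FDR of 0.0221 by the quasi-likelihood F test, 0.0357 by DESeq2, 0.0422 after a filter on low counts and 0.047 with litter as a covariate. In dKO its direction turned with litter as a covariate (0.28). The cKO mice had 0.705 and 0.789 times the ctrl level in litters 1 (2 cKO mice) and 2 (1 cKO mouse), each against 2 ctrl mice. The 2 dKO mice of litter 3 had 1.21 times the level of their 3 ctrl littermates.

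Tmpo (890 kb) and Nedd1 (520 kb), the expressed genes on either side of Rmst, had log2 fold changes of -0.13 ± 0.15 and -0.20 ± 0.22 in cKO (FDR = 1). The levels most like those of Rmst were those of Slit2 (r = 0.85), an axon guidance ligand, Vps37b (0.84) and Eml5 (0.83).

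Meg3 (ENSMUSG00000021268, chr12:109541001-109571726, plus strand) is the maternally expressed lncRNA of the imprinted Dlk1-Dio3 locus. It spans 30.7 kb and is 58.9% exonic. Ctrl mice had 453 to 662 CPM, with a median of 598. Levels in cKO were 866 (mouse 5), 681 (mouse 7), 1039 (F3) and 444 CPM (S2), and the dKO mice had 722 (F1), 940 (F7), 635 (T2) and 525 CPM (T8). In cKO, S2 was below every ctrl mouse and the other 3 were above every one. In the fit this was a log2 fold change of 0.36 ± 0.17 in cKO (FDR = 0.852) and 0.28 ± 0.15 in dKO (FDR = 1). Without S2 the cKO value was 0.55 (FDR = 0.0237), the only alternative under which Meg3 passed. The cKO value was 0.168 without F3 and 0.183 in batch 1 alone. With litter as a covariate the value was 0.046 in cKO and 0.015 in dKO. Littermates did not give a single direction, with a ratio of 1.27 in litter 1, 0.778 in litter 2 and 1.01 in litter 3.

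All 7 listed genes of the locus had counts. Rian and Mirg, the lncRNAs downstream of Meg3 on the same strand that carry snoRNAs and miRNAs, were the only others with a mean of 10 CPM. Rian was 333 ± 51.0 CPM in ctrl, 415 ± 57.5 in cKO and 333 ± 61.9 in dKO, a log2 fold change of 0.29 ± 0.13 (FDR = 0.852) and 0.01 ± 0.14 (FDR = 1). Mirg was 36.0 ± 3.03, 39.6 ± 5.56 and 38.8 ± 11.3 CPM. The paternally expressed Dlk1 was 6.03 ± 2.44 CPM in ctrl, and Rtl1, Dio3 and Dio3os averaged 1.18, 0.88 and 0.486 CPM over all mice. None of the 7 passed the test in either knockout. Over the 15 mice the levels most like those of Meg3 were those of Lingo1 (r = 0.90), Sntg2 (0.90) and Ptpn5 (0.88), the first and the last of which are neuronal genes.

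Inside Meg3, Rmst and Sox2ot lie 5 miRNA genes on the same strand, all listed at 0 like the other nested genes. Mature sequences of 4 are shown to identify these nested genes, for which no read was counted. Seeds, bases 2 to 8, are in capitals, and the sequences are RefSeq's (GRCm38.p6). miR-770-5p lies in Meg3 at chr12:109563710-109563731 on the plus strand, miR-135a-5p and miR-1251-5p lie in Rmst at chr10:92072141-92072163 and chr10:92137190-92137210 on the minus strand, and miR-1897-3p lies in Sox2ot at chr3:34638511-34638532 on the plus strand.
miR-770-5p: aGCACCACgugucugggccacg
miR-135a-5p: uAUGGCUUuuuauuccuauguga
miR-1251-5p: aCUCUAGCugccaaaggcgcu
miR-1897-3p: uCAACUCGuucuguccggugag
The 4 seeds differ from one another, and the mature miRNAs themselves were not measured by these libraries.

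Malat1, Neat1 and Miat are nuclear-retained lncRNAs. Malat1 (ENSMUSG00000092341, chr19:5795690-5802672, minus strand), a single-exon RNA of nuclear speckles, was the most abundant gene of the lncRNA class and the gene with the fourth highest CPM of all in ctrl. It had 3954 to 5737 CPM in ctrl, with a median of 5009. In cKO there were 5628 (mouse 5), 5761 (mouse 7), 7969 (F3) and 5313 CPM (S2), and the dKO mice 7167 (F1), 7013 (F7), 4641 (T2) and 5054 (T8). The 3 mice of litter 4 were above all 12 others. Fitted log2 fold changes were 0.31 ± 0.14 in cKO (FDR = 0.852) and 0.28 ± 0.15 in dKO (FDR = 1). Within the litters that held ctrl mice the ratio was 1.18, 0.985 and 1.03, with overlapping values in all 3. The part of the technical shares of litter 4, given at the start, in its Malat1 level was not tested. The genes most like Malat1 were Dynlrb1 (r = 0.96), Akap5 (0.95) and Akap9 (0.93).

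Neat1 (ENSMUSG00000092274, chr19:5824708-5845478, minus strand), the scaffold of paraspeckles and a neighbour of Malat1 at 22.0 kb, was barely detected. Counts in ctrl were 0 in mice 2 and T5 and 4 to 13 in the other 5, and were 39 to 61 in cKO and 3 to 46 in dKO. A count of 0 in mouse 2 allows up to 5.22 CPM, and in T5 up to 7.19 CPM, by a floor of 3 counts. The levels were 0 to 11.7 CPM in ctrl, with a median of 4.12. In cKO they were 8.73 (mouse 5), 15.3 (mouse 7), 8.86 (F3) and 6.26 (S2), and in dKO 10.6 (F1), 8.93 (F7), 8.29 (T2) and 2.77 (T8). The cKO and dKO values overlapped ctrl. The log2 fold change was 1.14 ± 0.35 in cKO (FDR = 0.191) and 0.92 ± 0.40 in dKO (FDR = 1), and without S2 the cKO value was 1.32 (FDR = 0.0161). With litter as a covariate the dKO value was 0.061 (FDR = 1), and in litter 3 the dKO mice had 1.08 times the ctrl level, with overlap. Levels of this size were not resolved in the shallow ctrl mice 2, T3 and T5, where 3 counts are 5.22 to 7.50 CPM. Sfpq, which encodes a core paraspeckle protein, did not pass the test (FDR = 1 in both knockouts against ctrl). Sfpq was 420 ± 58.1 CPM in ctrl, 418 ± 16.5 in cKO and 434 ± 25.2 in dKO.

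Miat (ENSMUSG00000097767, chr5:112213228-112229395, minus strand), found in nuclear domains of neurons and progenitors, overlapped in all 3 groups. It had 333 to 506 CPM in ctrl, with a median of 421. Values in cKO were 375 (mouse 5), 393 (mouse 7), 306 (F3) and 431 CPM (S2), and the dKO mice 431 (F1), 344 (F7), 499 (T2) and 391.8 (T8). Only F3 left the ctrl range. Fitted log2 fold changes were -0.14 ± 0.13 in cKO, 0.02 ± 0.14 in dKO and -0.12 ± 0.16 in cKO versus dKO (FDR = 1 in each). The littermate ratio was 1.01 in litter 1, 0.915 in litter 2 and 1.18 in litter 3. Smtn, Col2a1 and Itga6 had the most similar levels (r = 0.90, 0.90 and 0.89), and the first 2 of these averaged under 17 CPM.

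An antisense gene model overlaps each of Malat1 and Miat. Gm37376, within Malat1 on the other strand, was 2.36 ± 1.48 CPM in ctrl and 19.4 ± 29.9 in dKO, and rose in dKO by a log2 fold change of 3.08 ± 0.62 (FDR = 0.000596). Its dKO values were 64.0 CPM in F7, 8.15 in F1, 5.54 in T8 and 0 in T2, so 3 of 4 were above every ctrl mouse. Mouse F7 had 330 counts, and no ctrl mouse had more than 6. In ctrl mice T3 and T5, 3 counts are 7.50 and 7.19 CPM, so a level like that of T8 was not resolved there. Gm26953, which overlaps Miat on the other strand, was 0.471 ± 0.161 CPM in cKO, 3.93 ± 5.33 in ctrl and 6.50 ± 9.84 in dKO, and was lower in cKO than in dKO by 3.84 ± 0.82 on the log2 scale (FDR = 0.00831). Its dKO values were 21.2 CPM in F7, 3.02 in F1, 1.85 in T8 and 0 in T2, and they overlapped cKO. Mouse F7 had 109 counts, whereas the cKO mice had 1 to 5 and the ctrl mice 1 to 7. The highest ctrl level was 15.6 CPM in T5.

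Snhg11 (ENSMUSG00000044349, chr2:158375638-158386145, plus strand) hosts snoRNAs in its introns, is expressed in neurons and is classed as protein-coding in the annotation used. It had 68.6 to 128 CPM in ctrl, with a median of 118. The cKO mice had 116 (mouse 5), 104 (mouse 7), 150 (F3) and 80.5 CPM (S2), and the dKO mice 81.5 (F1), 148 (F7), 104 (T2) and 96.1 (T8). Its ctrl values fell into a lower set of 3 mice (S3, T3, T4) near 70 CPM and a higher set of 4 between 118 and 128, and the sets were not divided by litter. In the fit the log2 fold change was 0.15 ± 0.19 in cKO and 0.12 ± 0.19 in dKO (FDR = 1 in both). The cKO direction turned with litter as a covariate (-0.21). The levels most like those of Snhg11 were those of Cntnap2 (r = 0.85), a neuronal adhesion gene, Inpp4b (0.84) and Slc35f4 (0.84).

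**Figure D3:**
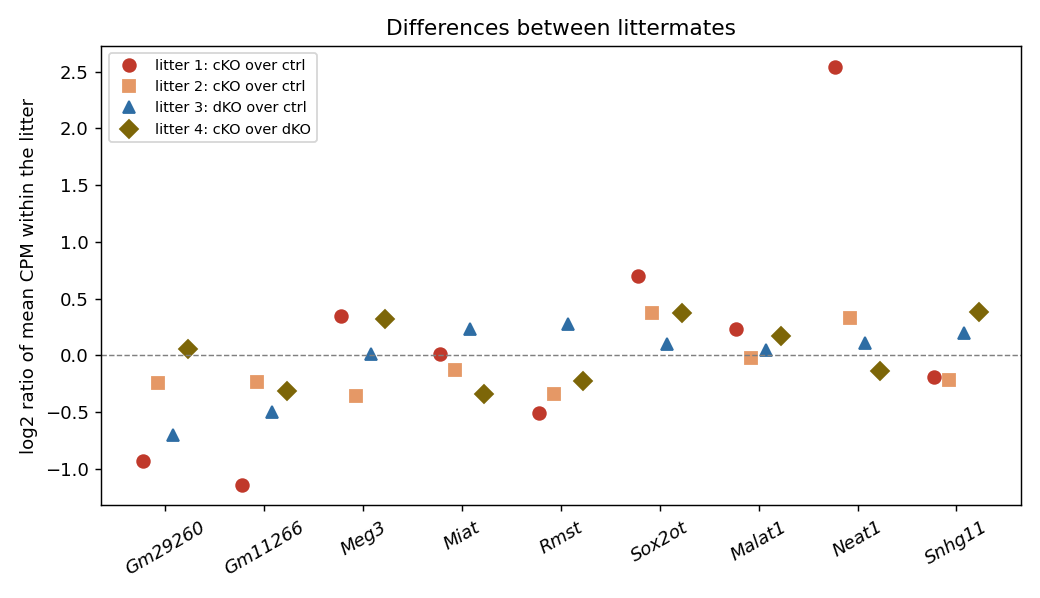
Log2 ratio of mean CPM between littermates for the 9 lncRNAs, with 1 point for each litter, cKO over ctrl in litters 1 and 2, dKO over ctrl in litter 3 and cKO over dKO in litter 4. Each mean is of 1 to 3 mice. Gm29260 lies below 0 in the 3 litters with ctrl mice, Sox2ot lies above 0 in all 4, and the high Neat1 point of litter 1 (2.54) compares 2 ctrl mice with 0 and 13 counts.

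By CPM the members ran in ctrl from Malat1 at 4935 ± 650 through Sox2ot at 1701 ± 201, Meg3 at 583 ± 72.8, Gm29260 at 555 ± 60.6, Miat at 406 ± 60.9, Rmst at 320 ± 65.3, Gm11266 at 131 ± 27.0 and Snhg11 at 99.9 ± 27.9 to Neat1 at 4.22 ± 3.94 (SD, n = 7). Meg3 and Gm29260 differed by less than their SD. Divided by gene span, which is what the counts cover, the order changed. Malat1 stayed first at 707 ± 93.1 CPM per kb of span, and Miat (25.1 ± 3.77), Meg3 (18.96 ± 2.37) and Snhg11 (9.51 ± 2.66) followed. Gm29260 (3.52 ± 0.384), Rmst (3.40 ± 0.694), Gm11266 (3.33 ± 0.688) and Sox2ot (2.94 ± 0.348) had levels within each other's spread, and Neat1 was lowest at 0.203 ± 0.190. Neat1 is annotated as exonic throughout, as is Malat1, and so the order did not follow the exonic share of the span. Among 11566 genes of the lncRNA class Gm29260 ranked 13 by CPM and 50 by CPM per kb of span, Gm11266 ranked 36 and 54, and Neat1 ranked 452 and 965.

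**Figure D4:**
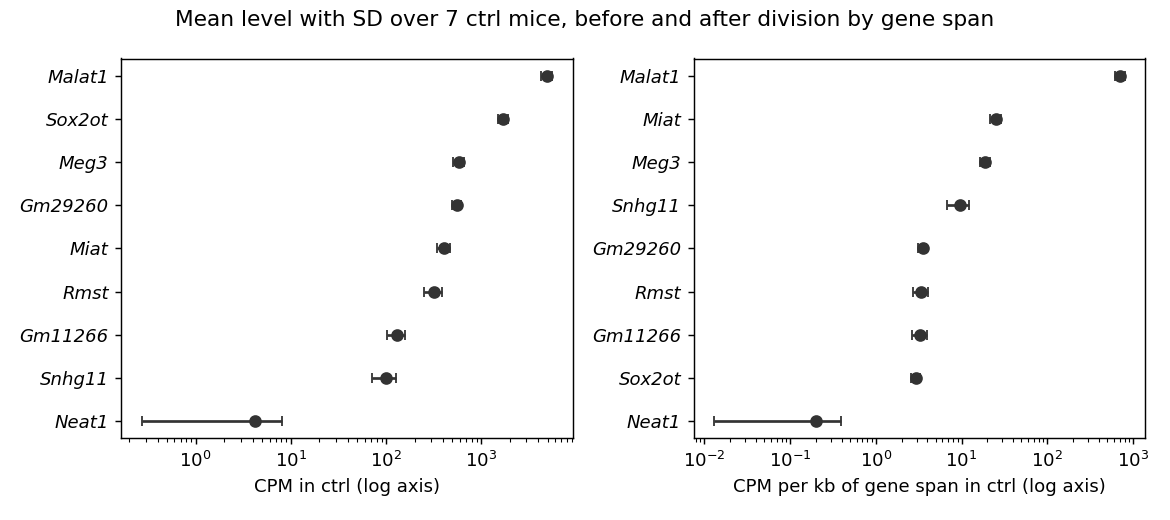
Mean level in 7 ctrl mice (points) with SD (bars) as CPM and as CPM per kb of gene span, both on log axes, each sorted from high to low. Sox2ot moves from the second place at 1701 CPM to the eighth at 2.94 CPM per kb, and Neat1 is last on both. The lower bar of Neat1 is cut where it would near 0.

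Of the 11566 genes of the lncRNA class, 5 were called higher and 6 lower in cKO, and 11 higher and 1 lower in dKO. In cKO versus dKO 2 were called higher and 14 lower. These counts include the gene models chosen for being lower. Among all 51912 genes, the share called was 0.16% in cKO, 0.0501% in dKO and 0.052% in cKO versus dKO. Of the calls in the lncRNA class, 8 in cKO, 5 in dKO and 1 in cKO versus dKO had a mean of at least 10 CPM. The other called genes of the class averaged less. The median log2 fold change of the 239 genes of the class with a mean of at least 10 CPM was 0.07 in cKO and 0.04 in dKO. For all 9178 genes with such a mean it was 0.04 and 0.01.

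The lists of related lncRNAs were chosen with earlier results of these data known, so where their calls fell is a description. Calls were confined to the p53-induced list, and both calls against ctrl were in cKO. Of its 3 genes Pvt1, the lncRNA beside Myc, rose in cKO from 32.5 ± 5.65 to 69.6 ± 11.1 CPM, a log2 fold change of 1.14 ± 0.16 (FDR = 2.88e-08). Pvt1 was 37.2 ± 6.13 CPM in dKO (FDR = 1 against ctrl) and was higher in cKO than in dKO by 0.91 ± 0.17 (FDR = 0.00129). Trp53cor1, the lincRNA next to Cdkn1a, rose in cKO (FDR = 0.0209) from 0.363 ± 0.8287 to 2.13 ± 0.543 CPM. It had at most 14 counts in any mouse. Neat1 is the third gene of that list.

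No gene of the other lists passed the test in any of the 3 comparisons. The neural list had 14 genes with a count of 16 listed, and 11 with a mean of 10 CPM, of which 6 had a positive and 5 a negative log2 fold change in cKO (median 0.01) and 3 and 8 in dKO (median -0.13). Its most abundant genes after Sox2ot were 2610307P16Rik at 957 ± 58.7 CPM in ctrl, 840 ± 123 in cKO and 822 ± 86.2 in dKO, and C130071C03Rik at 595 ± 64.2, 606 ± 47.3 and 586 ± 52.3. Dlx1as, antisense to an interneuron transcription factor gene, was 111 ± 21.1 CPM in ctrl, 143 ± 18.8 in cKO and 119 ± 23.4 in dKO (FDR = 0.581 in cKO).

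Among snoRNA hosts 17 of 20 listed were found, and 8 reached 10 CPM, with 6 positive and 2 negative in each knockout. Snhg14, the host transcript of the imprinted Prader-Willi region, was 648 ± 71.9 CPM in ctrl, 811 ± 169 in cKO and 694 ± 110 in dKO (FDR = 0.852 and 1), and Gas5 was 41.0 ± 11.9, 46.3 ± 8.10 and 53.1 ± 8.16. Of 10 miRNA hosts 5 reached 10 CPM. Mir99ahg was the most abundant, at 1954 ± 140 CPM in ctrl, 1579 ± 235 in cKO and 1518 ± 185 in dKO (FDR = 0.597 and 0.95), and Mir9-3hg was 338 ± 45.3, 263 ± 59.4 and 295 ± 50.6. Of 13 broadly expressed lncRNAs 10 reached that level, among them Kcnq1ot1 at 204 ± 36.3, 230 ± 27.7 and 195 ± 40.2 CPM and Tug1 at 91.1 ± 11.3, 92.0 ± 8.49 and 86.4 ± 6.79.

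**Figure D5:**
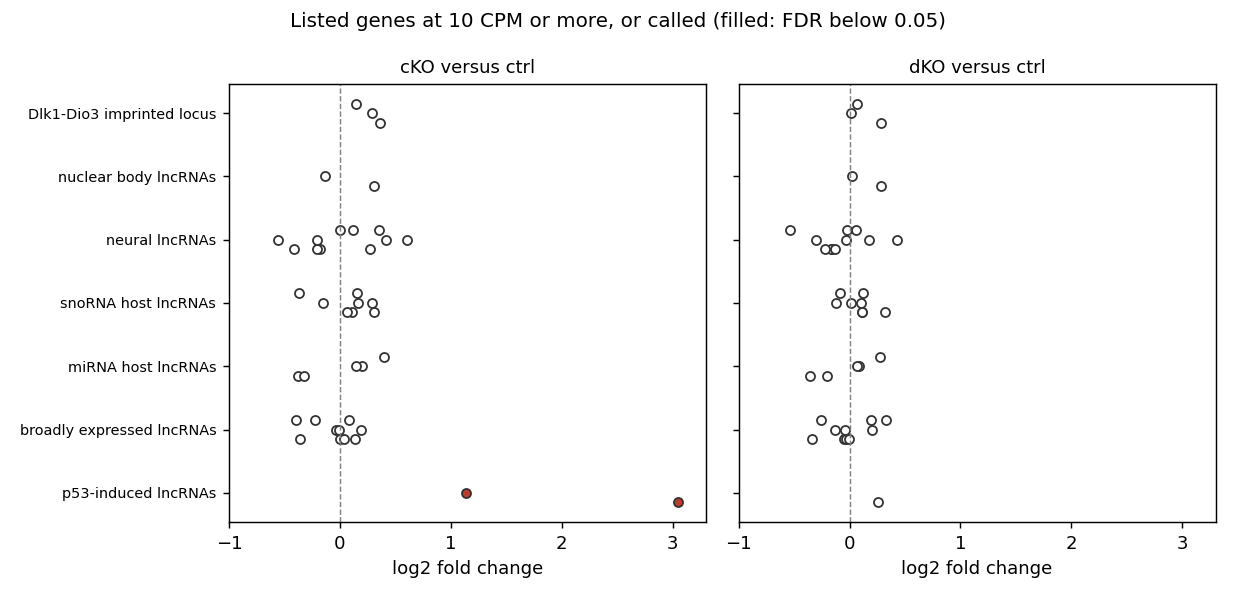
Log2 fold change of each gene of the 7 lncRNA lists with a mean of at least 10 CPM, or called, in cKO versus ctrl and dKO versus ctrl, with 1 row for each list and filled points for an FDR below 0.05. The only filled points are Pvt1 (1.14) and Trp53cor1 (3.04) in cKO, and the other genes lie on both sides of 0.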

How the data were processed

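UMI Click-seq libraries of rRNA-depleted RNA were trimmed by the authors with cutadapt 1.13, aligned to GRCm38 with STAR 2.5.2a, deduplicated by UMI with UMI-tools 0.5.3 and counted per gene with HTSeq 0.6.1p1 (intersection-nonempty). The deposited values are raw counts of deduplicated reads per gene, one file per library. The feature type and strand setting are not given in the sources used here.

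Symbols, biotypes and positions came from GENCODE M21 by Ensembl identifier. The 5 HTSeq summary lines were left out, and libraries S2 and S2b were summed as 1 mouse, giving 15 mice from 16 libraries. Each pair of groups was fitted on all 51912 genes with edgeR 4.0.16 in R 4.3.3 (TMM, estimateDisp, glmFit, glmLRT, no filter, no covariate), with Benjamini-Hochberg FDR below 0.05 as a call. The study's methods name edgeR, likelihood ratio tests and this adjustment, and the other settings were chosen here. CPM used TMM factors over all 15 mice. Likeness is Pearson's r of log2 CPM (prior count of 2) among genes with a mean of at least 10 CPM. Alternatives were other scalings, the quasi-likelihood F test of edgeR, DESeq2 1.42.0, a filter, covariates, single batches and leaving out each mouse. On simulated counts with 200 genes changed by 2-fold, the fit of cKO versus ctrl recovered 126, with 6 false calls among 51912 genes.

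The members, the gene lists and the tests were chosen with earlier results of these data known. Named genes are the 9 members, genes overlapping or nearest to them, the 3 most alike, called or abundant genes of the lists, and Knl1, Trp53 and Xist. Nfib, Nfia, the 5 genes lower in every knockout mouse and the antisense models in Malat1 and Miat follow from these or were named after their values were seen. Embryos are separate animals. Limits from counts cover counting error only. Results for 1 of the listed genes are not reported here.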

Additional observations from a re-analysis of the deposited data

Results flagged for a closer look

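Of 27 sets of values (9 lncRNAs in 3 groups), 1 held a mouse far from the rest by Dixon's criterion, where chance gives about 1 in 20. Malat1 in cKO mouse F3 was 7969 CPM, and the other 3 cKO mice were between 5313 and 5761 CPM. The gap was 0.831 of the group's range, just above the critical value. F3 belongs to litter 4, whose 2 dKO mice had 7013 and 7167 CPM, and its mitochondrial share of counts, 4.38%, was the highest of the 15 mice. Whether these values are connected was not tested.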

How the results depend on the processing

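Depth, an unbalanced litter and batch structure and 4 mice a knockout group limit these results. None of the 7 abundant lncRNAs was called as fitted. In cKO versus ctrl 2 were called by the quasi-likelihood F test (Rmst and Sox2ot), 1 by DESeq2 (Rmst), 1 after filterByExpr (Rmst), 2 with litter as a covariate (Rmst and Sox2ot), and 0 to 2 when 1 mouse was left out (Meg3 and Neat1 without S2). In cKO versus dKO the quasi-likelihood F test called 1 (Sox2ot). The cause was not tested. Gm29260 and Gm11266 stayed below ctrl under every alternative run, at log2 fold changes of -0.88 to -0.59 and -1.15 to -0.77 in cKO over the omissions of 1 mouse.

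Direction turned for values near 0. In cKO versus ctrl Snhg11 was -0.21 with litter as a covariate, -0.062 in batch 1 alone, and -0.019 to 0.285 over the omissions. In dKO versus ctrl Miat was -0.001 by total counts and -0.013 by upper quartile factors (-0.078 to 0.112 over the omissions), Rmst was 0.055 with batch, 0.28 with litter and 0.035 in batch 3 alone, Sox2ot was 0.12 with litter (-0.136 to 0.054), and Snhg11 was -0.10 to 0.24 over the omissions. In cKO versus dKO by total counts Meg3 was -0.005, Malat1 -0.046 and Snhg11 -0.051. With litter as a covariate Gm29260 was 0.076 and Neat1 -0.11, and Gm29260 was 0.059 with batch and 0.059 in batch 3 alone. The omissions gave -0.233 to 0.088 for Gm29260, -0.071 to 0.429 for Neat1, -0.080 to 0.287 for Meg3, -0.086 to 0.152 for Malat1 and -0.109 to 0.293 for Snhg11. The groups share no replicate number, and litter entered as the covariate given. Neat1 was removed by the filter in dKO versus ctrl.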
